A study of Homo sapiens with 24 samples.

Results

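Amino acid shortage, an overloaded endoplasmic reticulum and other insults all lead to phosphorylation of the translation factor eIF2, which slows protein synthesis while favouring translation of the transcription factor ATF4. ATF4, paired with other bZIP proteins such as the C/EBP factors, switches on genes for amino acid synthesis, amino acid import and tRNA charging, the step in which an aminoacyl-tRNA synthetase loads a tRNA with its amino acid. Many cancer cells use this response to sustain growth when amino acids are short, and ATF4 activity is controlled largely at the level of translation, so ATF4 RNA alone is a poor reading of it.

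The 45 genes described here are a named list from this response, taken from the 60675 genes counted: the stress kinases and phosphatase (3 genes), stress transcription factors and regulators (8), stress effectors (3), asparagine, serine and one-carbon enzymes (8), transsulfuration and proline enzymes with PCK2 (5), amino acid transporters (7), and cytosolic aminoacyl-tRNA synthetases with the tRNA exporter XPOT (11). Each symbol matched 1 Ensembl gene. All 45 passed the filter on low counts in MDA-MB-436, and 44 passed in MDA-MB-231, where CBS was at or near 0.

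RNA was sequenced from MDA-MB-436 and MDA-MB-231, established cell lines derived from triple-negative breast cancers. In each line 1 group was labelled as given a short hairpin RNA against MDM2 (MDM2 shRNA) and was set against a group with a non-targeting shRNA, and 1 group was given the MDM2 PROTAC YX-2-30, a molecule that links its target to a ubiquitin ligase for degradation, and was set against the solvent DMSO. Each of the 8 groups had 3 libraries. The labels give neither the dose and duration of the PROTAC nor the hairpin sequence. Nothing in the labels ties a group's 3 libraries to independent cultures, so the p-values rest on library-to-library spread, which may be technical.

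MDM2 RNA was not called lower in the libraries labelled MDM2 shRNA. Levels are in CPM, counts per 1e6 counts of the scaled library. In MDA-MB-436 MDM2 stood at 14.7, 28.04 and 26.8 CPM in the shRNA-labelled libraries, against 21.5, 29.9 and 24.3 CPM with the non-targeting shRNA, and at 22.8, 25.5 and 20.6 CPM with the PROTAC, against 40.01, 29.4 and 35.5 CPM with DMSO. In MDA-MB-231 MDM2 stood at 24.8, 23.8 and 30.9 CPM in the shRNA-labelled libraries, against 19.97, 22.9 and 11.4 CPM with the non-targeting shRNA, and at 20.4, 23.4 and 24.1 CPM with the PROTAC, against 16.99, 24.4 and 15.2 CPM with DMSO. Log2 changes here and below are given with ± their standard error, 3 libraries a group. The hairpin comparison gave a log2 change of -0.11 ± 0.22 in MDA-MB-436 (edgeR adjusted p = 0.78) and 0.55 ± 0.24 in MDA-MB-231 (adjusted p = 0.137), so these groups are called shRNA-labelled libraries and no change in them is assigned to MDM2 RNA. With the PROTAC, which acts on protein, the changes were -0.61 ± 0.22 in MDA-MB-436 (adjusted p = 0.0573) and 0.26 ± 0.24 in MDA-MB-231 (adjusted p = 0.513).

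Libraries held 33.4 to 174.7 M counts (M, counts in units of 1e6), with a median of 64.0 M. The shallowest was PROTAC replicate 3 in MDA-MB-436, where the summed level of the 45 genes was 6989 CPM, beside 8006 and 8441 CPM in the other PROTAC libraries. In MDA-MB-436 mitochondrial transcripts took 5.47 to 5.50% of counts in treated libraries and 6.78 to 7.26% in controls, and in MDA-MB-231 5.40 to 5.65% in treated libraries and 5.43 to 5.92% in controls. The part of this difference in the results was not tested. Of 3 receptors low in triple-negative cells, ESR1 and PGR were under 1 CPM in every library. ERBB2 held 38.8 to 62.2 CPM in MDA-MB-436 and 69.2 to 90.2 CPM in MDA-MB-231. Of 10 epithelial and basal markers KRT8, KRT18 and VIM were high in both lines, while CDH1, KRT5 and KRT14 were under 1 CPM in both. KRT19 was at most 1.4 CPM in MDA-MB-436 and held 329 to 392 CPM in MDA-MB-231. KRT7 held 6.48 to 38.1 CPM in MDA-MB-436 and 140 to 239 CPM in MDA-MB-231. EPCAM held 3.33 to 6.42 CPM and 17.6 to 21.0 CPM in the same order. KRT17 held 2.67 to 7.7 CPM in MDA-MB-436 and at most 0.821 CPM in MDA-MB-231. Of 6 leukocyte markers CD3E was at or near 0, but CD68 held 15.9 to 32.6 CPM in MDA-MB-436 and 29.8 to 44.8 CPM in MDA-MB-231, CD14 reached 14.5 CPM in MDA-MB-436 and PTPRC 5.42 CPM in MDA-MB-231. The summed leukocyte markers held 23.8 to 40.1 CPM in treated and 24.6 to 31.1 CPM in control libraries of MDA-MB-436, and 38.3 to 48.8 CPM in treated and 35.8 to 50.2 CPM in control libraries of MDA-MB-231. Of 4 endothelial markers KDR reached 8.46 CPM in MDA-MB-436 and 9.54 CPM in MDA-MB-231, and the summed level was 2.39 to 5.16 CPM in treated and 6.09 to 9.23 CPM in control libraries of MDA-MB-436, and 8.15 to 11.3 CPM in treated and 8.51 to 10.3 CPM in control libraries of MDA-MB-231. PECAM1 reached 2.2 CPM in MDA-MB-231 and 0.597 CPM in MDA-MB-436. The endothelial markers CDH5 and VWF were under 1 CPM, as were DCN, LUM, COL1A2 and COL3A1 of 6 fibroblast markers. The summed fibroblast markers, carried by COL1A1 and PDGFRB, reached 35.3 to 40.3 CPM in treated and 18.6 to 22.9 CPM in control libraries of MDA-MB-231, and 7.07 to 10.1 CPM and 5.03 to 6.83 CPM in MDA-MB-436. Summed epithelial and basal markers, VIM among them, reached 1050 to 1330 CPM in treated and 1780 to 2100 CPM in control libraries of MDA-MB-436, and 3840 to 4160 CPM and 5770 to 7360 CPM in MDA-MB-231. The part of these markers in the results was not tested. In bulk RNA a change in each cell and a change in the mix of cells cannot be told apart.

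The module moved in both directions in MDA-MB-436 and mostly downwards in MDA-MB-231. Of 45 members tested in MDA-MB-436, 17 rose and 10 fell in the shRNA-labelled libraries, and 17 rose and 10 fell with the PROTAC. Over all 22663 genes tested there, 16.0% rose and 14.4% fell in the hairpin comparison, and 17.3% rose and 15.1% fell with the PROTAC. The members' shares were 37.8% higher and 22.2% lower in each comparison, with median log2 changes of 0.19 and 0.21, beside medians of 0.04 and 0.043 over all genes. In MDA-MB-231, 4 of 44 members rose and 22 fell in the shRNA-labelled libraries, and 3 rose and 21 fell with the PROTAC. There 11.1% of 20675 genes rose and 11.6% fell in the hairpin comparison, and 11.1% rose and 11.5% fell with the PROTAC, beside member shares of 9.09% and 50%, then 6.82% and 47.7%. Member medians were -0.23 and -0.18 in MDA-MB-231, beside 0.014 and -0.006 over all genes.

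Most members are abundant, and abundant genes are called more often. Among genes averaging at least 10 CPM in MDA-MB-436, 34.1% of 41 members rose in the hairpin comparison and 36.6% with the PROTAC, beside 21.1% and 22.2% of such genes, while 24.4% of members fell in each, beside 26.0% and 26.9%. In MDA-MB-231, 57.9% of 38 such members fell in the hairpin comparison and 52.6% with the PROTAC, beside 17.5% and 17.1% of genes at that level. Against genes of at least 10 CPM the members' share was larger on the higher side in MDA-MB-436 and on the lower side in MDA-MB-231. Falling members in MDA-MB-436 were near this background. A floor of 10 CPM does not match genes for abundance, and many members lie far above it.

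Non-overlap of the libraries gave the same picture. In MDA-MB-436 the 3 shRNA-labelled libraries lay wholly above their controls for 23 members and wholly below for 15, where 26.1% and 25.2% of all genes did so. The PROTAC libraries lay above DMSO for 20 and below for 11, beside 21.3% and 20.3% of genes. In MDA-MB-231 the counts were 7 above and 27 below in the hairpin comparison (19.7% and 19.3% of genes), and 3 above and 24 below with the PROTAC (19.2% and 19.9%). These shares cover all genes tested, not abundant genes alone. Without replicate 3 of the PROTAC group in MDA-MB-436, 19 members rose and 13 fell in the hairpin comparison and 19 rose and 10 fell with the PROTAC. With no scaling between libraries, which moved the median of all genes in MDA-MB-436 by 0.18 and 0.17, 26 members rose and 8 fell and 22 rose and 9 fell there, and 72.8% and 70.9% of all called genes were higher instead of 52.5% and 53.4%. In MDA-MB-231 the same step moved the median by 0.10 and 0.08, with 7 members higher and 18 lower and 4 higher and 15 lower, and 68.0% and 65.6% of all calls higher instead of 48.8% and 49.1%.

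**Figure D1:**
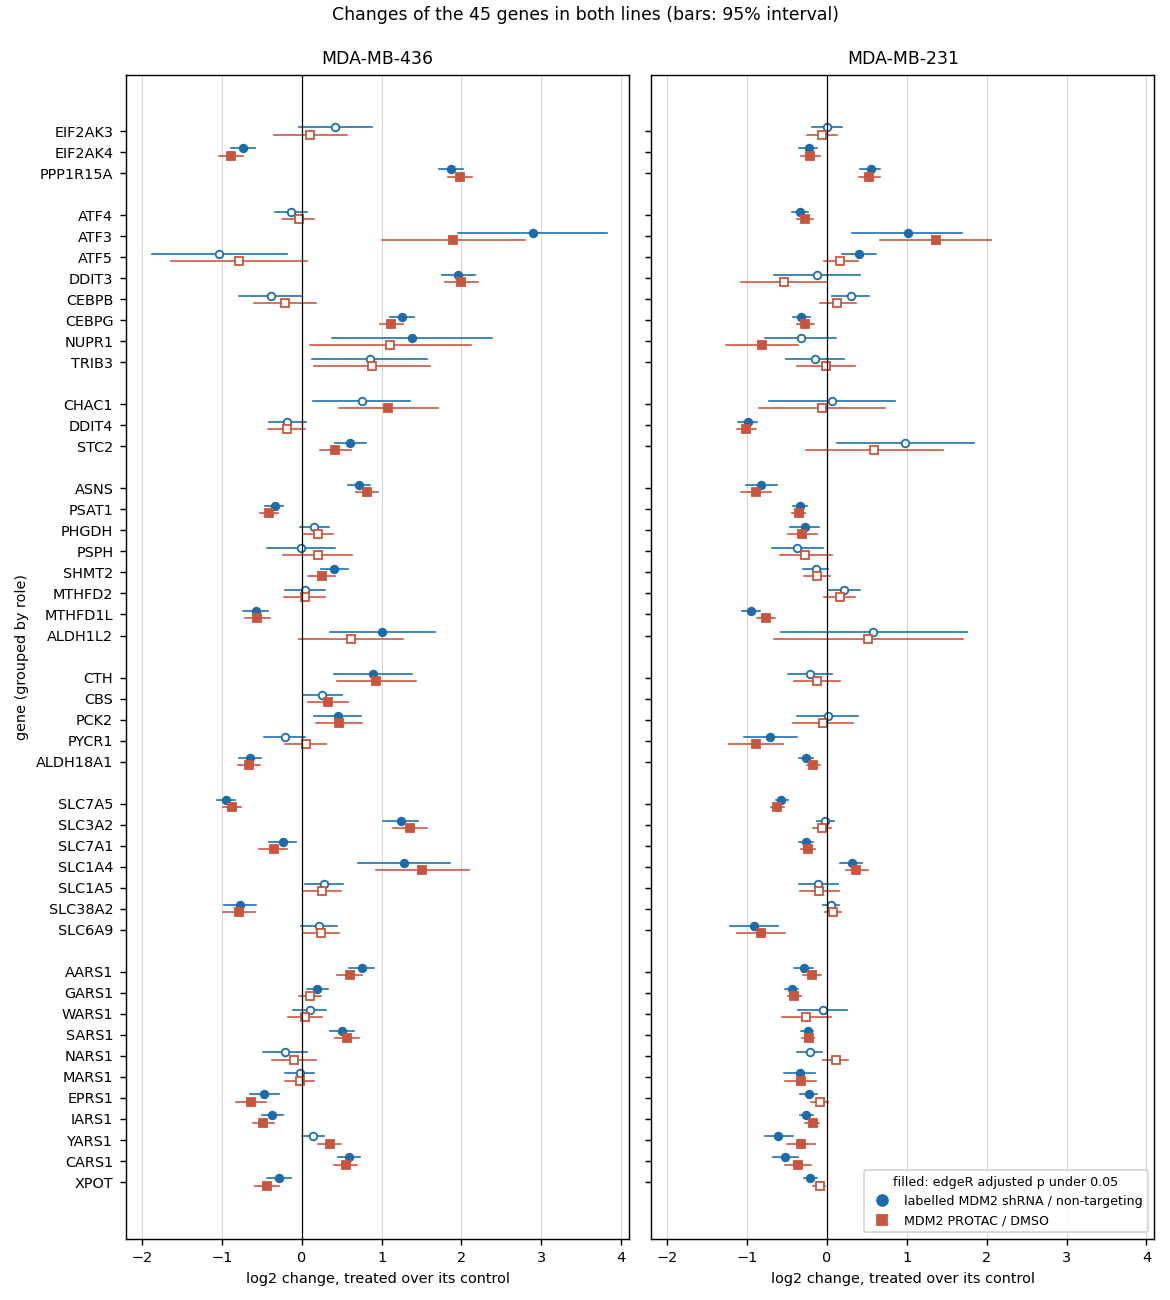
Log2 change (x axis) of each of the 45 genes (y axis, grouped by role) in MDA-MB-436 (left) and MDA-MB-231 (right), for shRNA-labelled over non-targeting libraries (circles) and PROTAC over DMSO (squares), with 95% intervals and filled symbols where the edgeR adjusted p was under 0.05. In MDA-MB-436 17 genes rose and 10 fell in each comparison; in MDA-MB-231 22 and 21 fell.

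Among the stress sensors, PPP1R15A rose and EIF2AK4 fell in all 4 comparisons. PPP1R15A (GADD34) brings a phosphatase to eIF2 and so ends the response. In MDA-MB-436 PPP1R15A stood at 463, 467 and 458 CPM in the shRNA-labelled libraries, against 125, 123 and 136 CPM with the non-targeting shRNA, and at 454, 478 and 383 CPM with the PROTAC, against 107, 118 and 106 CPM with DMSO. In MDA-MB-231 PPP1R15A stood at 253, 231.2 and 239 CPM in the shRNA-labelled libraries, against 172, 159 and 166 CPM with the non-targeting shRNA, and at 240.4, 219 and 246 CPM with the PROTAC, against 166, 153 and 168 CPM with DMSO. No treated library overlapped its controls in either line. PPP1R15A had log2 changes of 1.87 ± 0.068 and 1.98 ± 0.069 in MDA-MB-436 (adjusted p = 1.65e-08 and 1.03e-08), and 0.55 ± 0.057 and 0.53 ± 0.057 in MDA-MB-231 (adjusted p = 5.01e-05 and 6.27e-05).

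EIF2AK4 (GCN2) is the eIF2 kinase that senses uncharged tRNA. In MDA-MB-436 EIF2AK4 stood at 82.2, 77.3 and 80.5 CPM in the shRNA-labelled libraries, against 138, 131 and 136 CPM with the non-targeting shRNA, and at 72.3, 85.8 and 74.2 CPM with the PROTAC, against 138, 142 and 147 CPM with DMSO. In MDA-MB-231 EIF2AK4 stood at 140.1, 131 and 145 CPM in the shRNA-labelled libraries, against 163, 163 and 163 CPM with the non-targeting shRNA, and at 144, 134 and 136 CPM with the PROTAC, against 163, 165 and 150.2 CPM with DMSO. Treated libraries lay below controls throughout, with the wider gap in MDA-MB-436. Its log2 changes were -0.74 ± 0.066 and -0.89 ± 0.066 in MDA-MB-436 (adjusted p = 8.55e-06 and 2.29e-06), and -0.23 ± 0.051 and -0.21 ± 0.051 in MDA-MB-231 (adjusted p = 0.0069 and 0.0132). The PROTAC call in MDA-MB-231 was lost without PROTAC replicate 2 (adjusted p = 0.0567). EIF2AK3 (PERK), the kinase of endoplasmic reticulum stress, passed no treatment test, with changes of 0.42 ± 0.21 and 0.11 ± 0.21 in MDA-MB-436, where PROTAC replicate 1 held 23.0 CPM and the other replicates 44.1 and 44.0 CPM. Without that replicate EIF2AK3 was called higher in both MDA-MB-436 comparisons (adjusted p = 0.00839 and 0.0304).

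ATF4 RNA did not rise in any comparison. In MDA-MB-436 ATF4 stood at 284, 289 and 292 CPM in the shRNA-labelled libraries, against 301, 315 and 346 CPM with the non-targeting shRNA, and at 313, 297 and 222 CPM with the PROTAC, against 280.1, 300.4 and 270.1 CPM with DMSO. In MDA-MB-231 ATF4 stood at 257, 271 and 259 CPM in the shRNA-labelled libraries, against 333, 317 and 347 CPM with the non-targeting shRNA, and at 266, 255 and 278 CPM with the PROTAC, against 331, 316 and 319.7 CPM with DMSO. The shRNA-labelled libraries lay below their controls in both lines, the PROTAC libraries only in MDA-MB-231. The fall was called in MDA-MB-231, with log2 changes of -0.34 ± 0.046 and -0.28 ± 0.045 (adjusted p = 0.00028 and 0.00114), and not in MDA-MB-436, with -0.14 ± 0.093 and -0.04 ± 0.093 (adjusted p = 0.316 and 0.778).

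DDIT3 (CHOP), a transcription factor induced late in the response and linked to cell death, rose in MDA-MB-436 and passed no test in MDA-MB-231. DDIT3 in MDA-MB-436 stood at 43.4, 39.5 and 42.9 CPM in the shRNA-labelled libraries, against 10.8, 10.3 and 11.6 CPM with the non-targeting shRNA, and at 43.4, 46.7 and 34.99 CPM with the PROTAC, against 10.2, 10.6 and 10.3 CPM with DMSO. In MDA-MB-231 DDIT3 stood at 6.84, 6.44 and 7.45 CPM in the shRNA-labelled libraries, against 7.44, 5.11 and 10.1 CPM with the non-targeting shRNA, and at 6.34, 6.34 and 6.12 CPM with the PROTAC, against 6.22, 10.96 and 10.03 CPM with DMSO. Every treated library of MDA-MB-436 held at least 35.0 CPM and no control more than 11.6 CPM, while the groups of MDA-MB-231 overlapped. DDIT3 had log2 changes of 1.96 ± 0.095 and 2.0 ± 0.095 in MDA-MB-436 (fold 3.88 and 3.99, adjusted p = 1.17e-07 and 1.1e-07), and -0.13 ± 0.24 and -0.54 ± 0.24 in MDA-MB-231 (adjusted p = 0.774 and 0.148). Without DMSO replicate 1 DDIT3 was called lower with the PROTAC in MDA-MB-231 (adjusted p = 0.0425). DDIT3 overlaps MARS1 and MBD6 on the other strand over 413 exon bases, and AC022506.1 on its own strand over 105, and whether counting used strand is not given in the sources used here. MARS1 passed no test in MDA-MB-436 (log2 changes -0.02 ± 0.085 and -0.02 ± 0.085), and MBD6 and AC022506.1 were not analysed here. The part of these overlaps in the DDIT3 counts was not tested.

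CEBPG, a bZIP partner of ATF4, rose in MDA-MB-436 and fell in MDA-MB-231. CEBPG in MDA-MB-436 stood at 133, 135 and 131 CPM in the shRNA-labelled libraries, against 54.8, 54.05 and 60.1 CPM with the non-targeting shRNA, and at 124, 144 and 120.3 CPM with the PROTAC, against 57.9, 61.7 and 58.1 CPM with DMSO. In MDA-MB-231 CEBPG stood at 66.4, 63.9 and 68.8 CPM in the shRNA-labelled libraries, against 82.5, 84.9 and 80.6 CPM with the non-targeting shRNA, and at 70.3, 67.9 and 64.99 CPM with the PROTAC, against 78.3, 84.8 and 81.4 CPM with DMSO. No group overlapped its control. CEBPG had log2 changes of 1.26 ± 0.066 and 1.12 ± 0.066 in MDA-MB-436 (adjusted p = 1.97e-07 and 4.03e-07) and -0.32 ± 0.05 and -0.27 ± 0.05 in MDA-MB-231 (adjusted p = 0.000943 and 0.00259).

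ATF3, a stress-induced repressor and activator of the same family, was higher after treatment throughout. ATF3 in MDA-MB-436 stood at 97.3, 71.9 and 89.8 CPM in the shRNA-labelled libraries, against 7.72, 18.8 and 8.83 CPM with the non-targeting shRNA, and at 58.2, 47.5 and 85.8 CPM with the PROTAC, against 21.1, 21.8 and 8.73 CPM with DMSO. In MDA-MB-231 ATF3 stood at 12.5, 17.7 and 8.77 CPM in the shRNA-labelled libraries, against 6.30, 5.67 and 7.45 CPM with the non-targeting shRNA, and at 7.31, 13.2 and 13.2 CPM with the PROTAC, against 6.001, 3.85 and 3.24 CPM with DMSO. Its replicates varied widely, without overlap between treated and control. For ATF3 the log2 changes were 2.89 ± 0.43 and 1.90 ± 0.41 in MDA-MB-436 (adjusted p = 0.000337 and 0.00403) and 1.01 ± 0.31 and 1.36 ± 0.32 in MDA-MB-231 (adjusted p = 0.0386 and 0.00946). The hairpin call in MDA-MB-231 was lost on leaving out any 1 non-targeting library, shRNA-labelled replicate 1 or 2, or DMSO replicate 2 (adjusted p up to 0.15).

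TRIB3, a pseudokinase target of ATF4 and CHOP, passed no treatment test. In MDA-MB-436 TRIB3 stood at 188, 178 and 90.1 CPM in the shRNA-labelled libraries, against 65.4, 119 and 71.2 CPM with the non-targeting shRNA, and at 184, 181 and 138 CPM with the PROTAC, against 108, 108 and 55.4 CPM with DMSO. In MDA-MB-231 TRIB3 stood at 37.4, 37.4 and 21.9 CPM in the shRNA-labelled libraries, against 37.5, 36.5 and 32.96 CPM with the non-targeting shRNA, and at 37.1, 37.9 and 36.8 CPM with the PROTAC, against 36.9, 36.1 and 39.8 CPM with DMSO. In MDA-MB-436 2 of 3 shRNA-labelled libraries and all 3 PROTAC libraries lay above every control, and in MDA-MB-231 the groups overlapped. For TRIB3 the log2 changes were 0.85 ± 0.33 and 0.88 ± 0.33 in MDA-MB-436 (adjusted p = 0.0732 and 0.0614) and -0.15 ± 0.16 and -0.01 ± 0.16 in MDA-MB-231. It was called higher in both MDA-MB-436 comparisons without non-targeting replicate 2 or without shRNA-labelled replicate 3, and in the hairpin comparison also without DMSO replicate 3 (adjusted p down to 0.0225 and 0.0373).

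Of the other regulators, NUPR1, a small stress-induced chromatin protein, was near 1 CPM or below. In MDA-MB-436 NUPR1 changed by 1.38 ± 0.46 (adjusted p = 0.0398) and 1.11 ± 0.46 (adjusted p = 0.0901), and the hairpin call was lost in 7 of 12 fits that left out 1 library, all 3 shRNA-labelled replicates, non-targeting replicates 1 and 2, DMSO replicate 1 and PROTAC replicate 2 (adjusted p up to 0.131). In MDA-MB-231 it fell with the PROTAC (-0.81 ± 0.2, adjusted p = 0.0148, up to 0.0605 without DMSO replicate 3 or PROTAC replicate 2) and changed by -0.33 ± 0.2 in the hairpin comparison. ATF5, a bZIP factor of the mitochondrial stress response, rose in the shRNA-labelled libraries of MDA-MB-231 (0.40 ± 0.099, adjusted p = 0.0131, and 0.0562 at most without non-targeting replicate 2 or shRNA-labelled replicate 1). In MDA-MB-436 ATF5 changed by -1.03 ± 0.39 and -0.79 ± 0.39 (adjusted p = 0.0671 and 0.146), with replicate 3 of each treated group far below the other replicates at 6.42 and 10.8 CPM. Without shRNA-labelled replicate 1 or PROTAC replicate 3 the hairpin change of ATF5 was called lower, and without shRNA-labelled replicate 3 the PROTAC change (adjusted p = 0.0353 at the lowest, and 0.0328). CEBPB, another bZIP partner, passed in no treatment comparison, with changes of -0.39 ± 0.18 and -0.21 ± 0.18 in MDA-MB-436 and 0.30 ± 0.1 and 0.13 ± 0.1 in MDA-MB-231. The hairpin change of CEBPB was called lower in MDA-MB-436 without PROTAC replicate 3, and higher in MDA-MB-231 without DMSO replicate 3 or PROTAC replicate 1 (adjusted p down to 0.0102 and 0.0416).

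**Figure D2:**
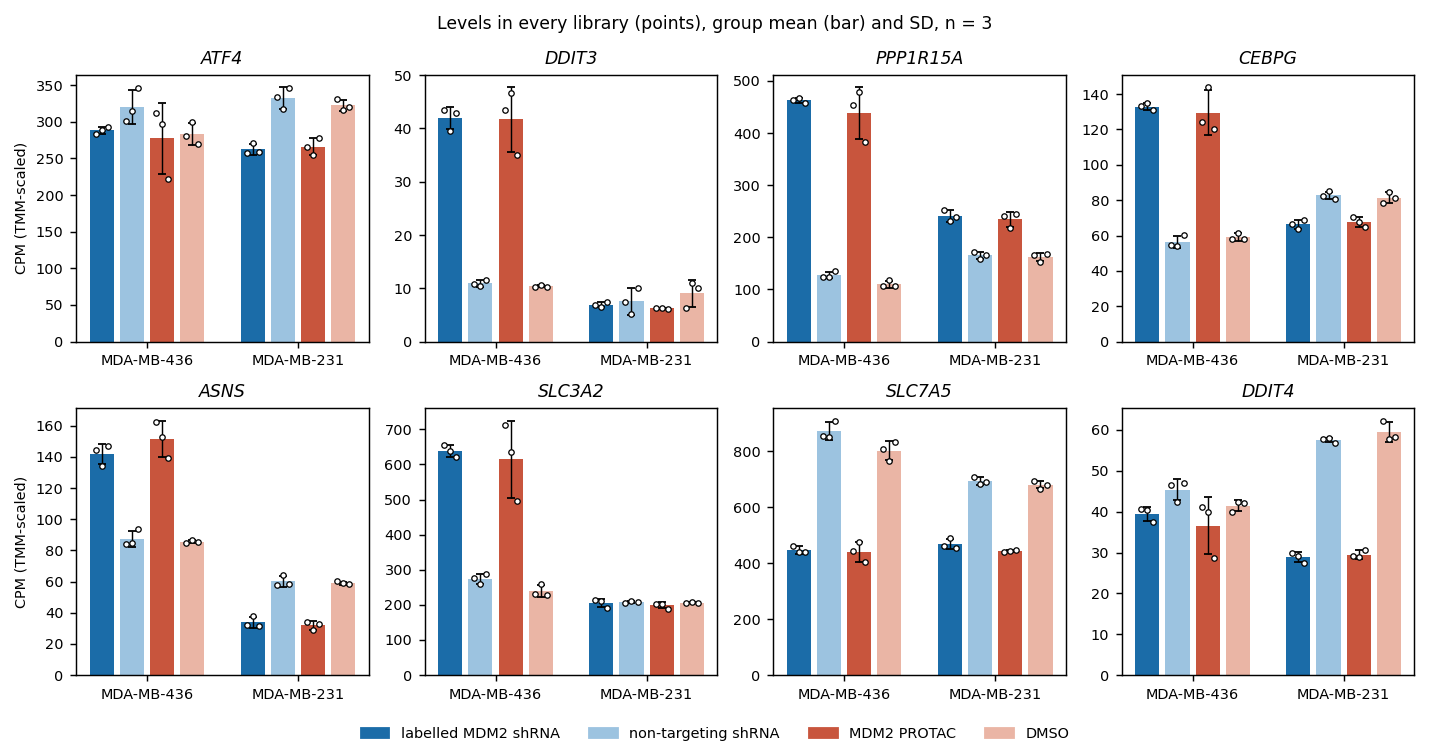
CPM (y axis, TMM-scaled) of 8 genes in each library (points), with the group mean (bar) and SD (n = 3), for MDA-MB-436 (left) and MDA-MB-231 (right) in each panel. In MDA-MB-436 treated libraries hold at least 35.0 CPM of DDIT3 against at most 11.6 CPM in controls, while ASNS is higher than its controls in MDA-MB-436 and lower in MDA-MB-231.

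The 3 stress effectors behaved differently from one another. DDIT4 (REDD1), which restrains the growth kinase complex mTORC1, was the member with the smallest adjusted p in the PROTAC comparison of MDA-MB-231. DDIT4 in MDA-MB-231 stood at 29.99, 29.2 and 27.6 CPM in the shRNA-labelled libraries, against 57.7, 57.9 and 56.9 CPM with the non-targeting shRNA, and at 29.1, 28.8 and 30.6 CPM with the PROTAC, against 62.3, 57.8 and 58.3 CPM with DMSO. In MDA-MB-436 DDIT4 stood at 40.6, 40.4 and 37.6 CPM in the shRNA-labelled libraries, against 46.6, 42.4 and 47.1 CPM with the non-targeting shRNA, and at 41.2, 39.9 and 28.6 CPM with the PROTAC, against 39.99, 42.4 and 42.1 CPM with DMSO. Treated libraries in MDA-MB-231 held at most 30.6 CPM and controls at least 56.9 CPM, and in MDA-MB-436 the PROTAC libraries overlapped DMSO. DDIT4 had log2 changes of -0.99 ± 0.055 and -1.01 ± 0.055 in MDA-MB-231 (adjusted p = 4.91e-07 and 4.09e-07) and -0.18 ± 0.1 and -0.19 ± 0.1 in MDA-MB-436 (adjusted p = 0.226 and 0.193). Without the PROTAC replicate 3 the hairpin change of DDIT4 in MDA-MB-436 was called lower (adjusted p = 0.0349). DDIT4 overlaps DDIT4-AS1 on the other strand over 847 exon bases, so the unknown use of strand limits its counts as it does those of DDIT3. In all, exons of 17 members overlap a gene on the other strand, MTHFD2 and ATF5 among them.

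CHAC1, which breaks down glutathione, rose in MDA-MB-436 with the PROTAC. In MDA-MB-436 CHAC1 stood at 15.3, 9.33 and 8.93 CPM in the shRNA-labelled libraries, against 5.96, 6.15 and 8.14 CPM with the non-targeting shRNA, and at 13.5, 11.01 and 12.4 CPM with the PROTAC, against 4.32, 8.53 and 4.47 CPM with DMSO. In MDA-MB-231 CHAC1 stood at 7.68, 4.99 and 4.01 CPM in the shRNA-labelled libraries, against 3.36, 5.58 and 7.14 CPM with the non-targeting shRNA, and at 3.87, 7.26 and 6.22 CPM with the PROTAC, against 7.36, 6.88 and 3.83 CPM with DMSO. Treated libraries lay above controls in MDA-MB-436 and overlapped them in MDA-MB-231. For CHAC1 the log2 changes were 0.75 ± 0.28 and 1.08 ± 0.28 in MDA-MB-436 (adjusted p = 0.0638 and 0.0113) and 0.06 ± 0.36 and -0.06 ± 0.36 in MDA-MB-231. The PROTAC call was lost without DMSO replicate 1 or 3 (adjusted p up to 0.0515), and the hairpin change was called without DMSO replicate 2 (adjusted p = 0.0238). STC2, a secreted glycoprotein, rose in MDA-MB-436 by 0.61 ± 0.09 and 0.42 ± 0.089 (adjusted p = 0.000314 and 0.00357) and was near 1 CPM in MDA-MB-231.

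Among the enzymes, ASNS moved in opposite directions in the 2 lines while the serine pathway enzyme PSAT1 fell in both. ASNS makes asparagine from aspartate and glutamine and is the standard reporter of ATF4 activity. In MDA-MB-436 ASNS stood at 145, 134 and 147 CPM in the shRNA-labelled libraries, against 83.96, 84.5 and 93.5 CPM with the non-targeting shRNA, and at 163, 153 and 139 CPM with the PROTAC, against 84.7, 86.7 and 85.2 CPM with DMSO. In MDA-MB-231 ASNS stood at 32.3, 38.02 and 31.5 CPM in the shRNA-labelled libraries, against 57.9, 64.1 and 58.3 CPM with the non-targeting shRNA, and at 34.3, 28.7 and 32.7 CPM with the PROTAC, against 60.1, 58.9 and 58.2 CPM with DMSO. No group overlapped its control. ASNS had log2 changes of 0.72 ± 0.062 and 0.82 ± 0.062 in MDA-MB-436 (adjusted p = 6.72e-06 and 2.42e-06) and -0.82 ± 0.086 and -0.89 ± 0.087 in MDA-MB-231 (adjusted p = 5.03e-05 and 2.96e-05). ASNS shares 1985 exon bases with AC079781.5 on its strand, which was not analysed here.

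PSAT1, the aminotransferase of serine synthesis, fell in all 4 comparisons. In MDA-MB-436 PSAT1 stood at 135, 143 and 142 CPM in the shRNA-labelled libraries, against 178, 176 and 186 CPM with the non-targeting shRNA, and at 142, 138 and 125 CPM with the PROTAC, against 180.4, 175.3 and 179.7 CPM with DMSO. In MDA-MB-231 PSAT1 stood at 163, 159 and 163 CPM in the shRNA-labelled libraries, against 208, 206 and 197 CPM with the non-targeting shRNA, and at 172, 161 and 162 CPM with the PROTAC, against 207, 210.5 and 213 CPM with DMSO. Every treated library of PSAT1 lay below its controls. For PSAT1 the log2 changes were -0.34 ± 0.052 and -0.41 ± 0.052 in MDA-MB-436 (adjusted p = 0.000385 and 0.000103) and -0.34 ± 0.038 and -0.35 ± 0.038 in MDA-MB-231 (adjusted p = 9.06e-05 and 6.45e-05).

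PHGDH, the entry enzyme of serine synthesis, was far more abundant in MDA-MB-436 and fell in MDA-MB-231. PHGDH in MDA-MB-436 stood at 618, 612 and 570.3 CPM in the shRNA-labelled libraries, against 522, 530.1 and 581 CPM with the non-targeting shRNA, and at 586, 584 and 438 CPM with the PROTAC, against 453, 476 and 449 CPM with DMSO. In MDA-MB-231 PHGDH stood at 33.8, 30.6 and 29.3 CPM in the shRNA-labelled libraries, against 40.1, 36.3 and 37.6 CPM with the non-targeting shRNA, and at 30.1, 31.2 and 28.3 CPM with the PROTAC, against 37.7, 33.7 and 39.8 CPM with DMSO. The groups overlapped in MDA-MB-436 and were apart in MDA-MB-231. For PHGDH the log2 changes were 0.16 ± 0.081 and 0.21 ± 0.081 in MDA-MB-436 (adjusted p = 0.179 and 0.0665) and -0.28 ± 0.081 and -0.31 ± 0.081 in MDA-MB-231 (adjusted p = 0.0282 and 0.017). In MDA-MB-231 the calls were lost in 4 and 3 of 12 fits that left out 1 library: non-targeting replicate 1 or 3 or shRNA-labelled replicate 2 or 3 in the hairpin comparison, and DMSO replicate 1 or 3 or PROTAC replicate 3 with the PROTAC (adjusted p up to 0.106 and 0.0709). In MDA-MB-436 both changes were called higher without PROTAC replicate 3 (adjusted p = 0.0265 and 0.000848). PSPH, the final serine enzyme, passed no treatment test, with changes between -0.37 and 0.20.

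The mitochondrial folate enzymes divided. MTHFD1L, which releases formate from mitochondria, fell in all 4 comparisons. In MDA-MB-436 MTHFD1L stood at 125, 118 and 129 CPM in the shRNA-labelled libraries, against 181, 191 and 189 CPM with the non-targeting shRNA, and at 114, 129.8 and 106 CPM with the PROTAC, against 161, 183 and 168 CPM with DMSO. In MDA-MB-231 MTHFD1L stood at 43.9, 41.8 and 43.99 CPM in the shRNA-labelled libraries, against 87.6, 83.3 and 80 CPM with the non-targeting shRNA, and at 45.8, 44.6 and 45.7 CPM with the PROTAC, against 79.5, 77.2 and 73.6 CPM with DMSO. No group overlapped its control. For MTHFD1L the log2 changes were -0.57 ± 0.071 and -0.56 ± 0.071 in MDA-MB-436 (adjusted p = 9.5e-05 and 0.000107) and -0.95 ± 0.051 and -0.76 ± 0.05 in MDA-MB-231 (adjusted p = 3.48e-07 and 1.89e-06). SHMT2, which splits serine in mitochondria, rose in MDA-MB-436 by 0.41 ± 0.077 and 0.25 ± 0.076 (adjusted p = 0.00173 and 0.0266). The PROTAC call of SHMT2 was lost in 6 of 12 fits that left out 1 library, any shRNA-labelled one, DMSO replicate 2 or 3, or PROTAC replicate 1 (adjusted p up to 0.107). MTHFD2, the dehydrogenase between them, stood at 323, 351 and 349 CPM in the shRNA-labelled libraries, against 372, 305 and 330.0 CPM with the non-targeting shRNA, and at 415, 438 and 308 CPM with the PROTAC, against 334, 384 and 407 CPM with DMSO in MDA-MB-436. In MDA-MB-231 MTHFD2 stood at 90.2, 79.7 and 99.3 CPM in the shRNA-labelled libraries, against 77.5, 78.3 and 75.9 CPM with the non-targeting shRNA, and at 94.98, 80.4 and 94.8 CPM with the PROTAC, against 74.7, 81.7 and 85.3 CPM with DMSO. It passed no treatment test, with log2 changes between 0.04 and 0.22, though it was called higher in the hairpin comparison of MDA-MB-231 without shRNA-labelled replicate 2 (adjusted p = 0.0337). ALDH1L2, a folate enzyme at under 5 CPM, rose in the shRNA-labelled libraries of MDA-MB-436 (1.01 ± 0.3, adjusted p = 0.0237), a call lost without non-targeting replicate 2 or 3 or shRNA-labelled replicate 2 or 3 (adjusted p up to 0.0922).

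In transsulfuration, which makes cysteine, CTH rose in MDA-MB-436 by 0.89 ± 0.22 and 0.93 ± 0.23 (adjusted p = 0.0103 and 0.00784), at 4.33 ± 0.613 CPM in the shRNA-labelled libraries against 2.36 ± 0.151 with the non-targeting shRNA and at 3.96 ± 0.0846 with the PROTAC against 2.07 ± 0.736 with DMSO (mean ± SD, n = 3). CBS, the step before it, held 0 counts in each shRNA group of MDA-MB-231, which in a library allows up to 3 counts, and 9 counts over the PROTAC libraries against 2 over the DMSO libraries. In MDA-MB-436 CBS averaged 12 ± 0.432 CPM in the shRNA-labelled libraries against 10.1 ± 0.45 CPM with the non-targeting shRNA, and 10.8 ± 1.39 CPM with the PROTAC against 8.55 ± 0.911 CPM with DMSO. Its PROTAC change there (0.33 ± 0.11, adjusted p = 0.0448) was lost in 10 of the 12 fits that left out 1 library, all but DMSO replicate 1 and PROTAC replicate 3 (adjusted p up to 0.152), and its near-identical copy CBSL took a similar number of counts (CBS held 44.5 to 46.0% of the pair in MDA-MB-436), so the level of CBS is uncertain.

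The proline enzymes fell where they moved. ALDH18A1, which makes the proline precursor, fell in all 4 comparisons, with log2 changes of -0.65 ± 0.064 and -0.66 ± 0.064 in MDA-MB-436 (adjusted p = 1.77e-05 and 1.6e-05) and -0.26 ± 0.039 and -0.17 ± 0.039 in MDA-MB-231 (adjusted p = 0.0007 and 0.0105). PYCR1, which completes proline, fell in MDA-MB-231 (-0.71 ± 0.15 and -0.89 ± 0.15, adjusted p = 0.00598 and 0.00151), and changed by -0.21 ± 0.12 and 0.05 ± 0.12 in MDA-MB-436. PCK2, the mitochondrial enzyme that makes phosphoenolpyruvate, rose in MDA-MB-436 by 0.45 ± 0.13 and 0.47 ± 0.13 (adjusted p = 0.0235 and 0.0185). Each PCK2 call was lost on leaving out some single libraries: non-targeting replicate 2 or 3 or shRNA-labelled replicate 1 or 2 in the hairpin comparison, and DMSO replicate 2 or 3 or PROTAC replicate 1 with the PROTAC (adjusted p up to 0.101 and 0.0793).

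SLC7A5 and SLC3A2 form one carrier for large neutral amino acids (LAT1 with the 4F2 heavy chain), and their RNAs moved apart in MDA-MB-436. SLC7A5, the transporting chain, fell in all 4 comparisons. In MDA-MB-436 SLC7A5 stood at 462, 441 and 439 CPM in the shRNA-labelled libraries, against 856, 851 and 909.7 CPM with the non-targeting shRNA, and at 445, 475 and 403 CPM with the PROTAC, against 807, 767 and 834 CPM with DMSO. In MDA-MB-231 SLC7A5 stood at 462, 491 and 455 CPM in the shRNA-labelled libraries, against 709.9, 684 and 689 CPM with the non-targeting shRNA, and at 441, 443 and 446 CPM with the PROTAC, against 692, 667 and 681 CPM with DMSO. Treated libraries of both lines held 403 to 491 CPM, below every control. SLC7A5 had log2 changes of -0.95 ± 0.052 and -0.87 ± 0.052 in MDA-MB-436 (adjusted p = 2.73e-07 and 4.57e-07) and -0.57 ± 0.035 and -0.62 ± 0.035 in MDA-MB-231 (adjusted p = 1e-06 and 4.95e-07).

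SLC3A2, the heavy chain, rose in MDA-MB-436. There SLC3A2 stood at 656, 638 and 622 CPM in the shRNA-labelled libraries, against 276, 259 and 287 CPM with the non-targeting shRNA, and at 712, 637 and 495 CPM with the PROTAC, against 232, 259 and 227 CPM with DMSO. In MDA-MB-231 SLC3A2 stood at 213, 211 and 191 CPM in the shRNA-labelled libraries, against 205, 212 and 207 CPM with the non-targeting shRNA, and at 204, 203 and 189 CPM with the PROTAC, against 206, 208 and 206 CPM with DMSO. Treated and control libraries were far apart in MDA-MB-436, and in MDA-MB-231 all libraries lay between 189 and 213 CPM. SLC3A2 had log2 changes of 1.24 ± 0.097 and 1.35 ± 0.097 in MDA-MB-436 (adjusted p = 3.59e-06 and 1.77e-06) and -0.02 ± 0.048 and -0.06 ± 0.048 in MDA-MB-231 (adjusted p = 0.833 and 0.437).

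Of the other carriers, SLC1A4, which moves alanine, serine and cysteine, rose in all 4 comparisons, by 1.28 ± 0.26 and 1.51 ± 0.26 in MDA-MB-436 and 0.31 ± 0.062 and 0.37 ± 0.062 in MDA-MB-231 (adjusted p = 0.00307, 0.001, 0.00434 and 0.00122). In MDA-MB-436 the shRNA-labelled replicates held 101, 40.4 and 98.5 CPM of SLC1A4, so 1 of them lay near its controls at 32.8, 31.8 and 35.2 CPM. SLC38A2, a sodium-coupled importer of small neutral amino acids, fell in MDA-MB-436 (-0.77 ± 0.089 and -0.79 ± 0.089, adjusted p = 6.03e-05 and 4.78e-05) and changed by 0.05 ± 0.047 and 0.08 ± 0.047 in MDA-MB-231. SLC6A9, a glycine carrier, fell in MDA-MB-231 (-0.91 ± 0.14 and -0.82 ± 0.14, adjusted p = 0.000668 and 0.00133) and changed by 0.22 ± 0.1 and 0.24 ± 0.1 in MDA-MB-436. SLC7A1, the carrier of arginine and lysine, fell in all 4, with log2 changes of -0.24 ± 0.078 and -0.35 ± 0.078 in MDA-MB-436 and -0.26 ± 0.041 and -0.24 ± 0.041 in MDA-MB-231. The hairpin call of SLC7A1 in MDA-MB-436 (adjusted p = 0.0375) was lost on leaving out any 1 of its 6 libraries (adjusted p up to 0.108). SLC1A5, a glutamine carrier, passed no treatment test, and in MDA-MB-436 it changed by 0.28 ± 0.11 and 0.25 ± 0.11, called higher in both without PROTAC replicate 3 and with the PROTAC also without non-targeting replicate 1 (adjusted p down to 0.0379 and 0.0213).

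Most of the 11 tRNA charging genes, the exporter XPOT counted among them, fell in MDA-MB-231, while in MDA-MB-436 some rose and some fell. In MDA-MB-231, 9 of 11 fell in the shRNA-labelled libraries (81.8%, beside 11.6% of all genes) and 7 of 11 with the PROTAC (63.6%, beside 11.5%), and none rose. Of the same 11 in MDA-MB-436, 4 rose and 3 fell in each comparison (36.4% and 27.3%), beside 16.0% and 14.4% of all genes in the hairpin comparison and 17.3% and 15.1% with the PROTAC. Among genes of at least 10 CPM there, 26.0% and 26.9% fell, near the share of these 11. AARS1, SARS1 and CARS1 rose in both MDA-MB-436 comparisons, joined by GARS1 in the hairpin comparison and YARS1 with the PROTAC, while EPRS1, IARS1 and XPOT fell in both. The median log2 change of the 11 was 0.10 and 0.04 in MDA-MB-436 and -0.26 and -0.23 in MDA-MB-231. Their summed level was 2697 ± 17.7 CPM in the shRNA-labelled libraries of MDA-MB-436 against 2734 ± 111 CPM with the non-targeting shRNA, and 2130 ± 73.5 CPM in those of MDA-MB-231 against 2629 ± 40.1 CPM with the non-targeting shRNA (mean ± SD, n = 3).

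GARS1, the glycine enzyme, showed the smallest adjusted p of this group in MDA-MB-231. In MDA-MB-231 GARS1 stood at 218, 219 and 225 CPM in the shRNA-labelled libraries, against 306, 294 and 299.6 CPM with the non-targeting shRNA, and at 215, 224 and 229.7 CPM with the PROTAC, against 303, 289 and 296 CPM with DMSO. In MDA-MB-436 GARS1 stood at 223, 226 and 232 CPM in the shRNA-labelled libraries, against 199, 193 and 211 CPM with the non-targeting shRNA, and at 209, 233 and 192 CPM with the PROTAC, against 188, 204 and 195 CPM with DMSO. The MDA-MB-231 groups were apart, and in MDA-MB-436 the PROTAC and DMSO libraries overlapped. For GARS1 the log2 changes were -0.44 ± 0.037 and -0.41 ± 0.037 in MDA-MB-231 (adjusted p = 1.1e-05 and 1.77e-05) and 0.19 ± 0.06 and 0.11 ± 0.06 in MDA-MB-436 (adjusted p = 0.0288 and 0.211). The hairpin call in MDA-MB-436 was lost without non-targeting replicate 1 or 2 or any 1 shRNA-labelled library (adjusted p up to 0.126).

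AARS1, the alanine enzyme, changed by 0.75 ± 0.073 and 0.60 ± 0.073 in MDA-MB-436 (adjusted p = 1.58e-05 and 7.91e-05) and by -0.29 ± 0.053 and -0.19 ± 0.053 in MDA-MB-231 (adjusted p = 0.00224 and 0.0278). The PROTAC call of AARS1 in MDA-MB-231 was lost without any 1 DMSO library or PROTAC replicate 1 or 2 (adjusted p up to 0.0991). CARS1, the cysteine enzyme, changed by 0.59 ± 0.064 and 0.55 ± 0.064 in MDA-MB-436 (adjusted p = 3.82e-05 and 5.62e-05) and by -0.52 ± 0.073 and -0.36 ± 0.073 in MDA-MB-231 (adjusted p = 0.000412 and 0.00446). SARS1, the serine enzyme, changed by 0.50 ± 0.07 and 0.57 ± 0.07 in MDA-MB-436 and by -0.24 ± 0.035 and -0.23 ± 0.035 in MDA-MB-231, all called. These 3 enzymes thus rose in one line and fell in the other.

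YARS1, the tyrosine enzyme, had the lowest p of the members in the test of PROTAC against hairpin change in MDA-MB-436. There YARS1 stood at 376, 365 and 361 CPM in the shRNA-labelled libraries, against 328, 330.5 and 353 CPM with the non-targeting shRNA, and at 405, 390.5 and 347 CPM with the PROTAC, against 304, 315 and 274 CPM with DMSO. In MDA-MB-231 YARS1 stood at 131, 136 and 156 CPM in the shRNA-labelled libraries, against 225, 222 and 196 CPM with the non-targeting shRNA, and at 156, 155 and 136 CPM with the PROTAC, against 191, 185 and 182 CPM with DMSO. Treated libraries lay above controls in MDA-MB-436 and below them in MDA-MB-231. For YARS1 the log2 changes were 0.14 ± 0.062 and 0.35 ± 0.062 in MDA-MB-436 (adjusted p = 0.115 and 0.00113) and -0.61 ± 0.079 and -0.33 ± 0.079 in MDA-MB-231 (adjusted p = 0.000243 and 0.0122).

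EPRS1, which charges glutamate and proline, fell in MDA-MB-436 (log2 changes -0.47 ± 0.084 and -0.63 ± 0.084), and so did IARS1, the isoleucine enzyme (-0.37 ± 0.059 and -0.48 ± 0.059, all 4 with adjusted p between 9.07e-05 and 0.00128). XPOT, which carries tRNA out of the nucleus, fell there too (-0.29 ± 0.071 and -0.44 ± 0.071, adjusted p = 0.00879 and 0.000614). In MDA-MB-231 IARS1 also fell (-0.26 ± 0.039 and -0.18 ± 0.039), and EPRS1 and XPOT passed in the hairpin comparison only (-0.23 ± 0.047 and -0.21 ± 0.034, beside -0.09 ± 0.047 and -0.09 ± 0.034 with the PROTAC). MARS1, the methionine enzyme, fell in MDA-MB-231 (-0.34 ± 0.088 and -0.33 ± 0.088), calls lost without shRNA-labelled replicate 1 or 2, and without DMSO replicate 1 or PROTAC replicate 3 (adjusted p up to 0.0666 and 0.076). WARS1, the tryptophan enzyme, passed no treatment test. NARS1, the asparagine enzyme, stood at 182, 179.6 and 210.3 CPM in the shRNA-labelled libraries, against 224, 218 and 219 CPM with the non-targeting shRNA, and at 223, 199 and 218 CPM with the PROTAC, against 196, 185 and 212 CPM with DMSO in MDA-MB-231. NARS1 in MDA-MB-436 stood at 171, 199 and 154 CPM in the shRNA-labelled libraries, against 187, 191 and 235 CPM with the non-targeting shRNA, and at 168, 187 and 217 CPM with the PROTAC, against 208, 206 and 196 CPM with DMSO. Only the shRNA-labelled libraries of MDA-MB-231 lay apart from their controls, and the change there (-0.21 ± 0.07, adjusted p = 0.0531) was called only without shRNA-labelled replicate 3, DMSO replicate 2 or DMSO replicate 3 (adjusted p down to 0.0125).

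Synthetases outside the 45 are given by compartment, and the difference between compartments was not tested. Of 17 mitochondrial synthetases, 9 (52.9%) fell and none rose in each MDA-MB-436 comparison (medians -0.44 and -0.36), where 14.4% and 15.1% of all genes fell, or 26.0% and 26.9% of those with at least 10 CPM. In MDA-MB-231 there were 2 falls and 1 rise in the hairpin comparison (11.8% and 5.88%) and 1 fall with the PROTAC (5.88%). The medians were -0.05 and 0.00. These shares lay near or below those of all genes, where 11.6% and 11.5% fell and 11.1% rose in each comparison. In MDA-MB-436 the log2 changes were -0.79 ± 0.054 and -0.91 ± 0.054 for IARS2, and -1.03 ± 0.092 and -0.89 ± 0.092 for WARS2. FARS2 fell in MDA-MB-231 (-1.83 ± 0.13 and -1.93 ± 0.13) and passed no test in MDA-MB-436 (0.03 ± 0.17 and -0.01 ± 0.17). The summed mitochondrial synthetases reached 737.9 ± 5.11 CPM in the shRNA-labelled libraries of MDA-MB-436 against 1041 ± 24.7 CPM with the non-targeting shRNA, while mitochondrial transcripts also took a smaller share of counts in those libraries, as given above. Of 13 other cytosolic synthetases and scaffold proteins, none rose and 3 fell in the hairpin comparison of MDA-MB-436. With the PROTAC 5 rose and 3 fell there. The 23.1% lower in each lay near the genes of at least 10 CPM. The shares that rose were 0.0% and 38.5%, beside 16.0% and 17.3% of all genes, or 21.1% and 22.2% of those with at least 10 CPM. In MDA-MB-231 2 fell in the hairpin comparison (15.4%), and 1 rose and 4 fell with the PROTAC (7.69% and 30.8%). Of genes with at least 10 CPM in that line, 17.5% and 17.1% fell and 15.9% and 16.6% rose. LARS1, the leucine enzyme, fell in both MDA-MB-231 comparisons (-0.60 ± 0.045 and -0.45 ± 0.044).

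**Figure D3:**
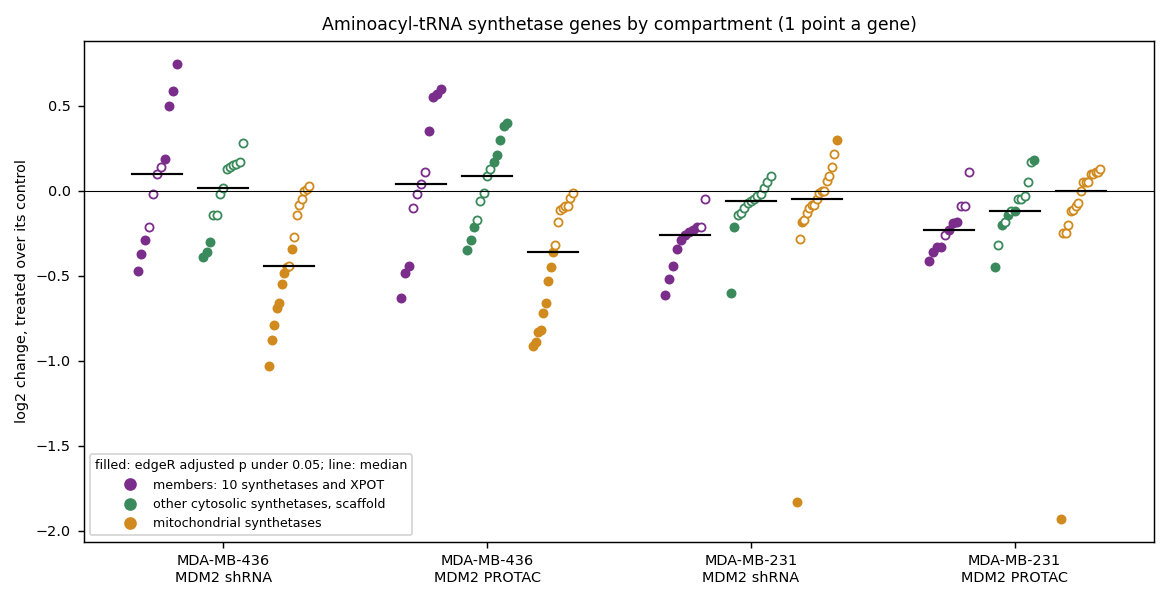
Log2 change (y axis) of each gene (points, filled where the edgeR adjusted p was under 0.05, with lines at the medians) in the 4 treatment comparisons (x axis). Shown are the 11 tRNA charging members with the exporter XPOT among them, 13 other cytosolic synthetases and scaffold proteins, and 17 mitochondrial synthetases. In MDA-MB-436 the mitochondrial medians are -0.44 and -0.36 beside 0.10 and 0.04 for the members.

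The 2 lines were then compared directly, by testing the treatment change in MDA-MB-436 minus that in MDA-MB-231. In the hairpin comparison 19 of 45 members had a higher change in MDA-MB-436 and 6 a lower one, beside 9.94% and 9.77% of all 24719 genes. With the PROTAC the counts were 18 and 7, beside 11.8% and 10.5% of genes. No background of abundant genes, which are called more often, is given for these differences, so the excess of members may be overstated. The median difference over the members was 0.42 and 0.38, beside 0.008 and 0.071 over all genes. CEBPG had the smallest adjusted p in both, with differences of 1.56 ± 0.092 and 1.40 ± 0.092 (adjusted p = 4.92e-10 and 1.86e-09). ASNS followed with 1.53 ± 0.11 and 1.71 ± 0.11 (adjusted p = 1.08e-08 and 2.11e-09), and PPP1R15A with 1.31 ± 0.1 and 1.46 ± 0.1 (adjusted p = 2.14e-08 and 4.72e-09). The change was lower in MDA-MB-436 for SLC38A2 (-0.84 ± 0.091 and -0.87 ± 0.091), EIF2AK4 (-0.52 ± 0.087 and -0.68 ± 0.087) and ALDH18A1 (-0.41 ± 0.082 and -0.49 ± 0.082). For PSAT1 the differences were -0.03 ± 0.069 and -0.05 ± 0.069, with 95% intervals of -0.17 to 0.12 and -0.20 to 0.09.

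Counting only members called in the same direction in both comparisons of a line, 5 of 44 rose in MDA-MB-436 and fell in MDA-MB-231: CEBPG, ASNS, AARS1, SARS1 and CARS1. That is 11.4% of members, where 0.852% of 19009 genes showed this pattern. The shares of genes in this paragraph cover all genes tested in both lines, not abundant genes alone, which are called more often. PPP1R15A, ATF3 and SLC1A4 rose in all 4 comparisons (6.82%, beside 2.73% of genes). EIF2AK4, PSAT1, MTHFD1L, ALDH18A1, SLC7A5, SLC7A1 and IARS1 fell in all 4 (15.9%, beside 3.35% of genes). No member fell in MDA-MB-436 and rose in MDA-MB-231 in this sense, a pattern of 0.926% of genes, and 12 members had no such call in either line.

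**Figure D4:**
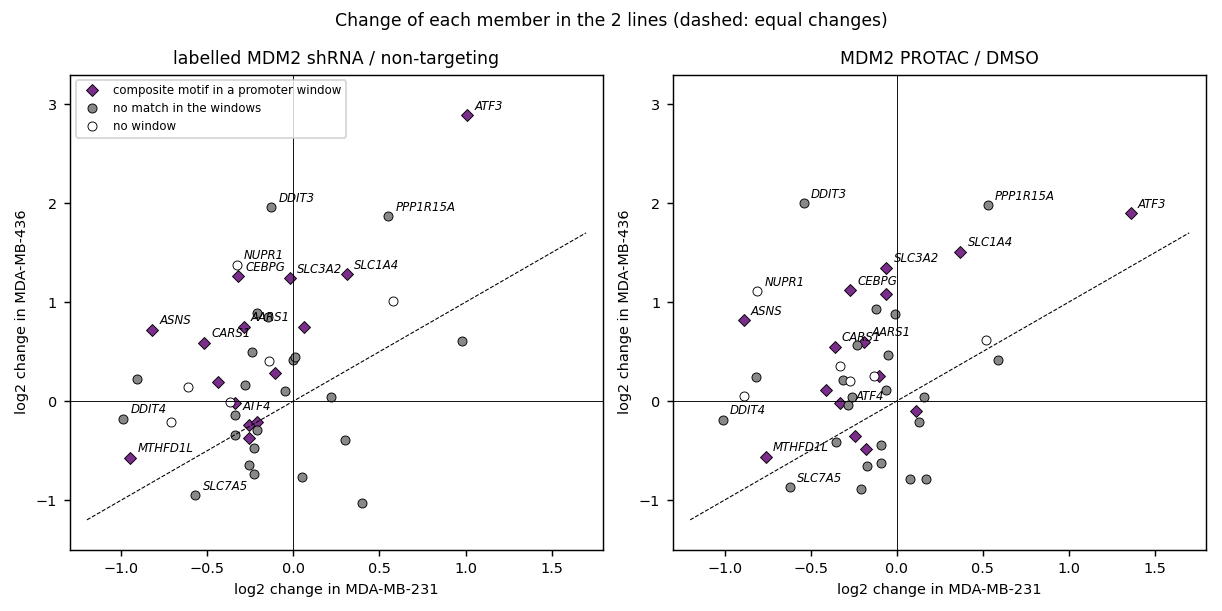
Log2 change in MDA-MB-436 (y axis) beside that in MDA-MB-231 (x axis) for the 44 members tested in both lines, in the hairpin comparison (left) and with the PROTAC (right); diamonds mark members with the composite motif in a promoter window, grey circles those with none and open circles those with no window. ASNS, CEBPG, AARS1 and CARS1 lie in the upper left, higher in MDA-MB-436 and lower in MDA-MB-231, and SLC7A5 and MTHFD1L in the lower left.

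ATF4 with a C/EBP partner binds a composite element, searched here as TGATGNAA and its reverse complement TTNCATCA, in RefSeq windows (GRCh38.p14) that run from 250 bases before to 50 after each gene start. Of 39 members with a window, 15 (38.5%) held a match, against 1217 of 27305 genes (4.46%). The members were listed as genes of the ATF4 response, so their larger share is no independent result and does not come from these RNA data. A gene with several starts has several windows, and a match is a description of the letters, not of binding. The element of ASNS lies 68 bases before its start, within this stretch of 120 bases upstream of the start (chr7:97872409-97872528, minus strand, match in capitals).
ASNS: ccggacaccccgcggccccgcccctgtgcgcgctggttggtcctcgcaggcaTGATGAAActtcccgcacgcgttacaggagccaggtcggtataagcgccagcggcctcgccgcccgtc

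The members that rose in MDA-MB-436 and fell in MDA-MB-231, or rose in all 4 comparisons, and held a match are shown next, each with 10 bases on either side and the match in capitals, written along the gene's own strand. SARS1 and PPP1R15A had a window with no match to the composite element.
ATF3 (chr1:212565206-212565233, plus strand): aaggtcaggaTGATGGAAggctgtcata
CEBPG (chr19:33374061-33374088, plus strand): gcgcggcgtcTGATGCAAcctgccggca
SLC1A4 (chr2:64989382-64989409, plus strand): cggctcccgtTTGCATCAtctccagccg
AARS1 (chr16:70289676-70289703, minus strand): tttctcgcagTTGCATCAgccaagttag
CARS1 (chr11:3057408-3057435, minus strand): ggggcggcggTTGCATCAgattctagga

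Members that fell in all 4 comparisons held it too, which is why they are shown beside the others: 3 of the 7, MTHFD1L, SLC7A1 and IARS1.
MTHFD1L (chr6:150866347-150866374, plus strand): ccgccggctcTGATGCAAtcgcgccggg
SLC7A1 (chr13:29595664-29595691, minus strand): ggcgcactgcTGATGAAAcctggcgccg
IARS1 (chr9:92293693-92293720, minus strand): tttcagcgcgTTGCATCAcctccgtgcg

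By call, the element was found in 7 of 13 members with a window that rose in both MDA-MB-436 comparisons, in 3 of 10 that fell there, and in 5 of 16 with no such call. For MDA-MB-231 it was found in 2 of 3 that rose, 9 of 18 that fell and 4 of 17 with no such call. PPP1R15A was the 1 member with the cyclic AMP response element TGACGTCA, which reads the same on either strand and was found in 2.25% of genes with a window.
PPP1R15A (chr19:48872353-48872380, plus strand): cctctcttcgTGACGTCAgcacgccggg

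Within each line most members changed in the same direction with the PROTAC and in the shRNA-labelled libraries. The 2 comparisons use separate controls. In MDA-MB-436, 43 of 45 members had the same sign in both (95.6%, beside 78.6% of all genes) and 24 were called in the same direction in both (53.3%, beside 24.2%). In MDA-MB-231, 40 of 44 had the same sign (90.9%, beside 75.2%) and 23 were called in the same direction in both (52.3%, beside 16.6%). The shares beside them cover all genes, while most members are abundant and abundant genes are called more often. No member passed the edgeR test of the PROTAC change minus the hairpin change in either line, where 0.00441% of genes in MDA-MB-436 and 0.00484% in MDA-MB-231 were called, each lower. At an unadjusted p under 0.05 there was 1 member in MDA-MB-436, YARS1, and there were 4 in MDA-MB-231, MTHFD1L, NARS1, YARS1 and XPOT, and DESeq2 called none.

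A missed threshold does not show that the 2 treatments act alike. The median size of the difference was 0.11 in MDA-MB-436 and 0.08 in MDA-MB-231 on the log2 scale, and the median half-width of its 95% interval 0.29 and 0.24. In MDA-MB-436 the differences of the 3 members with the lowest p were 0.21 ± 0.088 for YARS1, -0.99 ± 0.56 for ATF3 and -0.15 ± 0.093 for EIF2AK4, with 95% intervals of 0.02 to 0.40, -2.23 to 0.25 and -0.35 to 0.06. In MDA-MB-231 they were 0.32 ± 0.099 for NARS1, 0.19 ± 0.071 for MTHFD1L and 0.28 ± 0.11 for YARS1, with intervals of 0.10 to 0.54, 0.04 to 0.35 and 0.03 to 0.53.

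**Figure D5:**
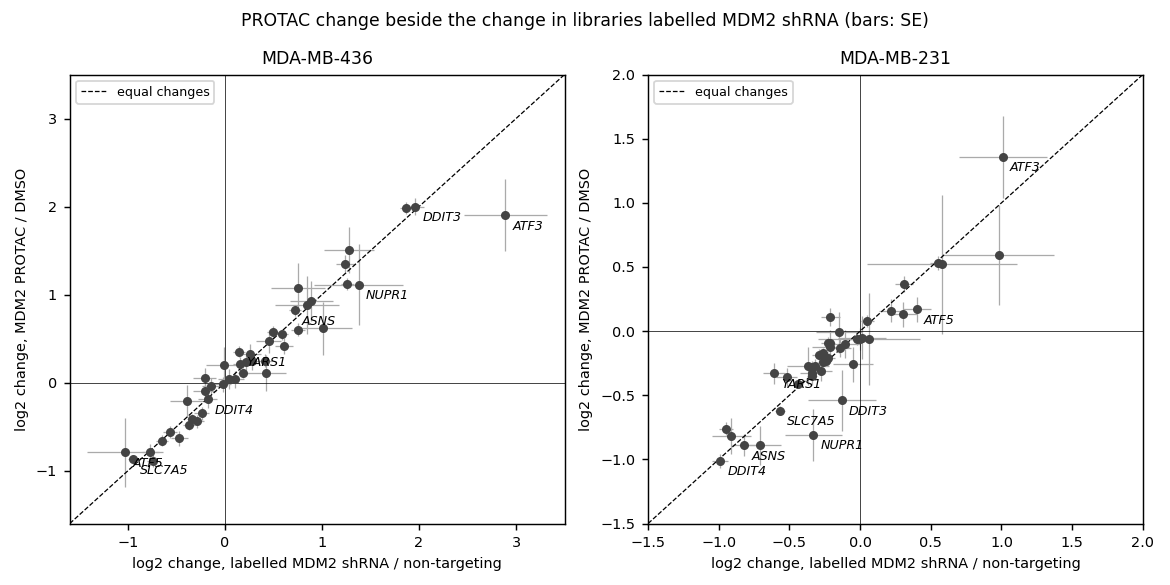
Log2 change with the PROTAC (y axis) beside that in shRNA-labelled libraries (x axis) for each member, with standard errors, in MDA-MB-436 (left, 45 members) and MDA-MB-231 (right, 44 members); the dashed line marks equal changes. The members lie along the line, with 43 of 45 and 40 of 44 of the same sign in both, and ATF3 in MDA-MB-436 lies below it.

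The lines also differed before treatment. In the controls of MDA-MB-436 against those of MDA-MB-231, 19 members were higher and 19 lower of 45 (42.2% each), beside 35.9% and 30.9% of all genes. Shares among abundant genes, which are called more often, are not given for this test. PHGDH was higher by 3.74 ± 0.072, a 13.3-fold difference (adjusted p = 1.32e-19), STC2 by 7.46 ± 0.2 (adjusted p = 1.58e-17) and MTHFD2 by 2.17 ± 0.084 (adjusted p = 5.5e-15). STC2 stood at 172, 167 and 174 CPM in the shRNA-labelled libraries, against 109.9, 111 and 118 CPM with the non-targeting shRNA, and at 148, 183 and 129.6 CPM with the PROTAC, against 120.1, 113 and 108 CPM with DMSO in MDA-MB-436. In MDA-MB-231 STC2 stood at 1.15, 1.18 and 1.29 CPM in the shRNA-labelled libraries, against 0.835, 0.668 and 0.308 CPM with the non-targeting shRNA, and at 0.957, 0.904 and 1.17 CPM with the PROTAC, against 0.921, 0.733 and 0.352 CPM with DMSO. CEBPB (1.88 ± 0.12), ALDH1L2 (2.68 ± 0.31) and ATF3 (1.42 ± 0.27) were also higher in MDA-MB-436 controls, and CTH (-2.65 ± 0.13), SLC1A5 (-1.5 ± 0.09), NUPR1 (-1.41 ± 0.26) and PYCR1 (-1.10 ± 0.1) lower. ATF4 RNA differed by -0.12 ± 0.062 (adjusted p = 0.0996) and was called without any 1 of 4 libraries, non-targeting replicate 2 of MDA-MB-231, non-targeting replicate 3, DMSO replicate 2 or PROTAC replicate 3 of MDA-MB-436 (adjusted p down to 0.0115).

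Levels of different genes were set side by side per kilobase of exon length, summed over all annotated exons of a gene. That length can exceed the length of the RNA a cell makes, as may be so for PHGDH with 9217 bases, so the order is rough and depends on it. On this scale SLC7A5 led in both lines, at 169 CPM per kilobase with DMSO in MDA-MB-436 and 143 in MDA-MB-231. With DMSO in MDA-MB-436 CEBPB (123) and ATF4 (113) came next. In MDA-MB-231 SLC1A5 (142) and ATF4 (128) did. At the low end in MDA-MB-436 stood NUPR1 (0.0881) and ALDH1L2 (0.35), and in MDA-MB-231 ALDH1L2 (0.0391) and STC2 (0.109), with CBS below them near 0. With the PROTAC PPP1R15A reached 142 CPM per kilobase in MDA-MB-436, above SLC7A5 at 93.

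Other known targets and neighbours of the pathway were counted in the same way. These lists were chosen with earlier results of these data known, so their counts are not independent of those of the members. The shares over all genes were, in the hairpin and PROTAC comparisons, 16.0% and 17.3% higher and 14.4% and 15.1% lower in MDA-MB-436, and 11.1% and 11.1% higher and 11.6% and 11.5% lower in MDA-MB-231. Among genes of at least 10 CPM they were 21.1% and 22.2% higher and 26.0% and 26.9% lower in MDA-MB-436, and 15.9% and 16.6% higher and 17.5% and 17.1% lower in MDA-MB-231. Of 13 other ATF4 targets measured, 7 rose and 3 fell in the hairpin comparison of MDA-MB-436 and 8 rose and 2 fell with the PROTAC, against 1 and 3, then 2 and 3, in MDA-MB-231. Thus 53.8% and 61.5% rose in MDA-MB-436, above the background, and 23.1% and 15.4% fell, while in MDA-MB-231 7.69% and 15.4% rose and 23.1% fell in each. GADD45A, a growth arrest gene also under control of other factors, rose by 2.93 ± 0.065 and 3.09 ± 0.065 in MDA-MB-436 and 0.61 ± 0.094 and 0.43 ± 0.094 in MDA-MB-231. KLHL24 rose in MDA-MB-436 (1.44 ± 0.1 and 1.41 ± 0.1) and SESN2, a leucine sensor that restrains mTORC1, did too (0.65 ± 0.081 and 0.78 ± 0.081), beside 0.05 ± 0.07 and 0.03 ± 0.07 in MDA-MB-231. BCAT1, an aminotransferase of branched-chain amino acids, fell in all 4, with log2 changes of -0.50 ± 0.064 and -0.68 ± 0.064 in MDA-MB-436 and -0.63 ± 0.048 and -0.58 ± 0.048 in MDA-MB-231.

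Of 12 genes for eIF2, its exchange factor eIF2B and further eIF2 kinases, 3 rose and 5 fell in the hairpin comparison of MDA-MB-436 and 4 rose and 3 fell with the PROTAC, and 3 rose and 1 fell, then 4 rose and 1 fell, in MDA-MB-231. The 25% higher in the hairpin comparison of MDA-MB-436 is near the background of abundant genes, as is the 25% lower with the PROTAC, beside 41.7% lower and 33.3% higher in the other counts of that line. EIF2S3, the gamma subunit of eIF2, fell in MDA-MB-436 (-0.41 ± 0.05 and -0.46 ± 0.05) and rose in MDA-MB-231 (0.20 ± 0.039 and 0.25 ± 0.039), and so did EIF2AK2 (PKR), the kinase that senses double-stranded RNA (-0.35 ± 0.08 and -0.39 ± 0.08, beside 0.41 ± 0.052 and 0.33 ± 0.052). PPP1R15B, the constitutive relative of PPP1R15A, rose in MDA-MB-436 (0.42 ± 0.065 and 0.35 ± 0.065).

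Of 15 other serine, glycine, folate and methionine enzymes, 2 rose and 7 fell in the hairpin comparison of MDA-MB-436 and 1 rose and 7 fell with the PROTAC, against 2 and 1, then 5 and 1, in MDA-MB-231. Thus 46.7% fell in each comparison of MDA-MB-436, above the background given, and 13.3% and 6.67% rose, below it. MAT2A, which makes S-adenosylmethionine, fell in all 4, with log2 changes of -1.2 ± 0.05 and -1.22 ± 0.05 in MDA-MB-436 and -0.33 ± 0.031 and -0.34 ± 0.031 in MDA-MB-231. Among the enzymes of glutamate and aspartate, 2 rose and 3 fell of 9 in the hairpin comparison of MDA-MB-436 and 2 rose and 2 fell with the PROTAC, and 2 rose and 1 fell of 8 in each comparison of MDA-MB-231. These shares, 22.2% higher and 33.3% and 22.2% lower in MDA-MB-436, are near those of abundant genes. GOT1, the cytosolic aspartate aminotransferase, rose in MDA-MB-436 (0.38 ± 0.067 and 0.49 ± 0.067) and fell in MDA-MB-231 (-0.38 ± 0.049 and -0.32 ± 0.049), and OAT, ornithine aminotransferase, did the opposite (-0.78 ± 0.075 and -0.67 ± 0.075, beside 0.26 ± 0.063 and 0.35 ± 0.063).

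Of 17 other amino acid transporters in MDA-MB-436, 7 rose and 1 fell in the hairpin comparison and 8 rose and 3 fell with the PROTAC. In MDA-MB-231 2 of 15 rose and 2 fell in the hairpin comparison, and 1 rose with the PROTAC. The higher shares in MDA-MB-436, 41.2% and 47.1%, lie above the background. The lower shares there (5.88% and 17.6%) and the 13.3% each way in the hairpin comparison of MDA-MB-231 lie near or below it. SLC36A4, a proton-coupled family member, rose in all 4 comparisons, by 0.42 ± 0.073 and 0.46 ± 0.073 in MDA-MB-436 and 0.39 ± 0.063 and 0.37 ± 0.063 in MDA-MB-231. SLC43A1, a carrier of large neutral amino acids, rose in MDA-MB-436 by 0.96 ± 0.12 and 1.00 ± 0.12, where SLC7A5 fell.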

How the data were processed

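The deposited values were whole-number counts per Ensembl gene, 1 table for each of 24 libraries. Per the submitters' processing notes, the tools named were cutadapt 2.4, HISAT2, StringTie and edgeR, with build GRCh38, and per the labels' protocols, NEBNext Ultra II libraries were sequenced on an Illumina instrument. Strand and the counting rule are not given in the sources used here. In every library more genes held 4 counts than the mean number at 3 and 5 counts (1.2 to 1.64 times), so the deposited counts are not evenly spread at low values.

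The 45 genes and the related lists were chosen with earlier results of these data known. Genes passing filterByExpr were scaled by TMM and tested with edgeR 4.0.16 (R 4.3.3) by quasi-likelihood, with Benjamini-Hochberg adjustment over all genes tested and a threshold of 0.05. Each line was fitted with its 12 libraries (8 residual degrees of freedom), and differences between lines with all 24. Printed CPM use TMM over 24 libraries. A gene rose or fell where it passed this threshold. The analysis was tested on simulated data. DESeq2 1.42.0, other scalings, filters, thresholds and left-out libraries were alternatives. Values in every library were given for ATF4, DDIT3, ASNS, PSAT1, PHGDH, TRIB3 and CHAC1, for the 5 members with the smallest adjusted p in each treatment comparison and for the 3 in each difference test. Up to 4 genes of each related list were named by the same measure, and some genes are not reported here. Counts of 33.4 to 174.7 M a library limit low genes, and count floors cover counting error only. Gene positions came from GENCODE 29, promoter sequence from RefSeq on GRCh38.p14. Replicate numbers were not used to pair the libraries in the main fits.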

Additional observations from a re-analysis of the deposited data

Results flagged for a closer look

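Each member whose treatment change differed between the lines by a direct test is listed here with its log2 change in MDA-MB-436 minus its log2 change in MDA-MB-231 (edgeR, 24 libraries, adjusted p at most 0.0371 in the hairpin comparison and 0.0248 with the PROTAC). No cause of these differences was tested.

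In the hairpin comparison 19 members had a higher change in MDA-MB-436. Their log2 differences were PPP1R15A 1.31, ATF3 1.87, DDIT3 2.07, CEBPG 1.56, NUPR1 1.68, DDIT4 0.79, ASNS 1.53, PHGDH 0.42, SHMT2 0.53, MTHFD1L 0.36, CTH 1.08, SLC3A2 1.24, SLC1A4 0.96, SLC6A9 1.11, AARS1 1.03, GARS1 0.62, SARS1 0.73, YARS1 0.73 and CARS1 1.09. A lower change in MDA-MB-436 was found for 6 members, with log2 differences of EIF2AK4 -0.52, ATF5 -1.45, CEBPB -0.71, ALDH18A1 -0.41, SLC7A5 -0.40 and SLC38A2 -0.84. The calls of ATF5 (without shRNA-labelled replicate 1 of MDA-MB-231), NUPR1 (in 4 of 24 fits that left out 1 library), SLC1A4 (in 5), PHGDH (in 7) and CEBPB (in 10) did not hold on leaving out 1 library, with adjusted p up to 0.0521, 0.0656, 0.0872, 0.0762 and 0.103.

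With the PROTAC 18 members had a higher change in MDA-MB-436. Their log2 differences were PPP1R15A 1.46, DDIT3 2.54, CEBPG 1.40, NUPR1 1.93, DDIT4 0.83, ASNS 1.71, PHGDH 0.53, SHMT2 0.38, CTH 1.06, PYCR1 0.94, SLC3A2 1.42, SLC1A4 1.15, SLC6A9 1.06, AARS1 0.79, GARS1 0.52, SARS1 0.81, YARS1 0.68 and CARS1 0.92. A lower change in MDA-MB-436 was found for 7 members, with log2 differences of EIF2AK4 -0.68, ALDH18A1 -0.49, SLC7A5 -0.25, SLC38A2 -0.87, EPRS1 -0.54, IARS1 -0.29 and XPOT -0.34. The calls of SLC7A5 (in 3 of 24 fits) and SHMT2 (in 6) did not hold on leaving out 1 library, with adjusted p up to 0.083 and 0.0875. ATF3, called in the hairpin comparison, had a difference of 0.53 ± 0.53 with the PROTAC (adjusted p = 0.553).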

How the results depend on the processing

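No member's change that passed the threshold reversed under any alternative run. At a threshold of 0.01, 2 members instead of 4 rose in the hairpin comparison of MDA-MB-231. With no scaling beyond library totals 7 rose there, and 26 instead of 17 in the hairpin comparison of MDA-MB-436, because that step moves all genes upwards, as given above. An alternative chosen after seeing the data left out CBS and the members whose exons overlap another gene, and so held 26 members. It left 13 and 12 members lower in the hairpin and PROTAC comparisons of MDA-MB-231 and 11 higher in each of MDA-MB-436. Between the lines it left 11 higher and 3 lower in the hairpin comparison and 9 higher with the PROTAC, and between controls 9 higher and 10 lower, the smaller counts following from fewer members.

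Leaving out 1 library at a time, 2 to 5 members rose and 20 to 23 fell in the hairpin comparison of MDA-MB-231 (2 rose without non-targeting replicate 2 or shRNA-labelled replicate 1), and 3 to 3 rose and 18 to 21 fell with the PROTAC. In MDA-MB-436 13 to 19 rose and 9 to 13 fell in the hairpin comparison, and 13 to 19 rose and 10 to 11 fell with the PROTAC. Between the lines the ranges were 17 to 20 higher and 4 to 7 lower, then 17 to 22 and 6 to 8 with the PROTAC, and between controls 18 to 20 and 19 to 20. The PROTAC change minus the hairpin change gave 0 calls in each. With a replicate block 3 members rose and 23 fell in the hairpin comparison of MDA-MB-231, 3 and 21 with the PROTAC, and 17 and 10 in each comparison of MDA-MB-436. Taken over all genes kept by the filter, treated libraries did not deviate together with the same-numbered library of their control (correlations of -0.03 to 0.03). Such a correlation cannot show a link limited to some genes. Same-numbered libraries of the 2 treatments were not compared, so a batch shared by number was not tested. Of 192 calls, DESeq2 kept all 192 and added 8. Depth limits the calls of members near or below 1 CPM, such as NUPR1 in both lines and ALDH1L2, CBS and STC2 in MDA-MB-231.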
